A study of Mus musculus with 8 samples.

Results

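The libraries described here test one question, which transcripts differ when Ring1a is knocked down in cells that already lack Ring1b, with the samples pooled over the presence and absence of an EZH1/2 inhibitor. They are poly(A) RNA libraries of immortalized mouse embryonic fibroblasts, 4 with the Ring1a shRNA and 4 with the ctr shRNA, which are all 8 libraries of the series. They were chosen by their labels alone. Every library came from the line labelled 6KO iMEFs, a previously established line in which Setdb1, Suv39h1/2, Ehmt1, Ehmt2 and Ring1b are knocked out, so the controls carry all of these deletions too. Within each arm 2 libraries came from cells kept for 7 days in 1 uM DS3201, an inhibitor of the catalytic activity of EZH1 and EZH2, and 2 from cells without it. The labels, whose protocol is the same for all 8 libraries, describe the infection for the Ring1a shRNA only: a lentivirus made in 293FT cells, used at a multiplicity of infection of 2, with selection in 7 ug/ml BSD for 3 days. Libraries were built from 500 ng of total RNA.

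Ring1a, whose gene symbol is Ring1, and Ring1b, whose gene symbol is Rnf2, are the alternative catalytic subunits of Polycomb repressive complex 1 (PRC1), which places ubiquitin on histone H2A. This mark, with the H3K27 methylation placed by EZH1 and EZH2 in PRC2, keeps many developmental genes silent. In cells without Ring1b, Ring1a is the catalytic subunit that remains. An shRNA is cut inside the cell into a short guide strand that pairs along its whole length with its target mRNA. A guide can also lower other mRNAs, mostly through 3′ UTR sites that pair only with its seed, bases 2 to 8 from its 5′ end.

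The columns of the 8 libraries begin with 20 or 28, called set 20 and set 28 here, and each set holds 1 library of each of the 4 groups. This gave 4 matched pairs, in each of which a library with the Ring1a shRNA is set against the library with the ctr shRNA of the same set and DS3201 state. Total counts ran from 14782753 to 23688253 with the Ring1a shRNA, against 12738585 to 20554685 with the ctr shRNA. Whether the libraries came from separate cultures is not in the labels, so p-values measure only how far these libraries differ from each other, which could be technical. Fibroblast markers were abundant in every library: the 17 of 21 listed markers tested summed to 16159 to 26083 CPM (counts scaled to library size) with the Ring1a shRNA and to 17377 to 25252 CPM with the ctr shRNA. The 12 of 25 blood and macrophage markers tested summed to 13.1 to 67.9 CPM, against 13.9 to 57.3 CPM. In such bulk samples, fewer cells of a type and less RNA per cell cannot be told apart.

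The set 28 pair with DS3201 stood apart from the others. In it, 15.3% of the tested entries differed by more than 1 on the log2 scale, whereas the other 3 pairs had 3.53% to 4.75%. Its differences followed base composition. When genes were split into 3 equal classes by the GC content of their 3′ UTR, the median difference in this pair was -0.38 in the lowest class and 0.56 in the highest, and in the other pairs every class lay between -0.01 and 0.03. The set 28 ctr shRNA library with DS3201 had the lowest scaling factor of the 8, 0.889. The calls and the gene lists below are therefore also given without this pair, an alternative chosen after seeing the data.

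Transcripts of 8 genes fell with the Ring1a shRNA and none rose past the threshold. In the model with terms for set, DS3201 and shRNA (edgeR quasi-likelihood, Benjamini-Hochberg adjusted p under 0.05 over 15287 entries, 14393 of them genes), 8 entries were called lower, 0.0523% of those tested, and 0 were called higher, 0.0%. At an unadjusted p under 0.05 there were 808 lower entries, 5.29%, and 898 higher entries, 5.87%. DESeq2 called 152 lower, 0.994%, and 158 higher, 1.03%, while limma-voom called 8 lower and 0 higher. The 8 called genes were Ring1 itself and 7 genes outside Polycomb: Xpo6, Mon2, Ppp2ca, Map2k4, Pdcl, Dnajc13 and Fam63b.

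Ring1, the target of the shRNA, was the gene with the largest fall among the 8. It had 4.51 and 1.41 CPM in sets 20 and 28 with the Ring1a shRNA and 3.52 and 2.04 CPM with the Ring1a shRNA and DS3201, against 20.2 and 9.73 CPM with the ctr shRNA and 20.4 and 7.51 CPM with the ctr shRNA and DS3201. Every library with the Ring1a shRNA lay below every control, and set 20 was higher than set 28 in both arms. The fitted log2 fold change was -2.32 ± 0.19 (SE, 4 libraries per arm, edgeR adjusted p = 0.0317). The 4 pairs gave -2.14 and -2.69 without DS3201 and -2.50 and -1.82 with it. The libraries thus match their shRNA labels. Rnf2, the gene of the Ring1b knockout, still had 26.4 to 61.6 CPM with the Ring1a shRNA and 28.9 to 89.0 CPM with the ctr shRNA. The other 5 genes labelled as knocked out also had reads, from Setdb1 at 5.17 to 13.1 CPM with the Ring1a shRNA and 4.33 to 9.46 CPM with the ctr shRNA, up to Ehmt2 at 173 to 208 CPM with the Ring1a shRNA and 98.9 to 217 CPM with the ctr shRNA. Reads outside a deleted stretch check nothing, and the labels do not say which part of each gene is deleted.

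Which entries passed depended on the model and the libraries, while the log2 fold change of Ring1 stayed between -2.46 and -2.21 in every fit without a library or a pair. Without the set term no entry was called, with 297 lower and 310 higher at an unadjusted p under 0.05 (Ring1 adjusted p = 0.951, edgeR with no replicate block). When any 1 of 7 libraries was left out, again no entry was called. Without the set 28 ctr shRNA library with DS3201, 82 entries were called lower, all 8 genes among them, and 66 higher. In all of these settings the 8 genes kept a negative log2 fold change.

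The 7 other genes have roles in transport, signalling and protein turnover. Xpo6 encodes exportin 6, which carries actin with profilin out of the nucleus. It had 34.98 and 32.2 CPM with the Ring1a shRNA and 34.4 and 33.0 CPM with the Ring1a shRNA and DS3201, against 69.0 and 89.4 CPM with the ctr shRNA and 74.1 and 77.6 CPM with the ctr shRNA and DS3201. Its 4 knockdown libraries sat close together, and the arms were far apart. The log2 fold change was -1.20 ± 0.11 (edgeR adjusted p = 0.0376, the value shared by all 7 of these genes).

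Fam63b, also named Mindy2, encodes a deubiquitinase that trims Lys48-linked ubiquitin chains. It had 18.5 and 18.8 CPM with the Ring1a shRNA and 12.9 and 17.6 CPM with the Ring1a shRNA and DS3201, against 42.9 and 49.9 CPM with the ctr shRNA and 30.1 and 54.5 CPM with the ctr shRNA and DS3201. Its arms did not overlap either, and its log2 fold change of -1.37 ± 0.15 was the largest after that of Ring1. Dnajc13 encodes a co-chaperone of the endosome. It had 132 and 134 CPM with the Ring1a shRNA and 118 and 121 CPM with the Ring1a shRNA and DS3201, against 288 and 298 CPM with the ctr shRNA and 217 and 341 CPM with the ctr shRNA and DS3201. Its log2 fold change was -1.17 ± 0.13. The knockdown libraries were again close together, with the spread in the controls.

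Pdcl encodes a phosducin-like cofactor for the assembly of G protein beta-gamma dimers. It had 22.1 to 32.1 CPM in the 4 libraries with the Ring1a shRNA, against 47.2 to 69.4 CPM in the 4 with the ctr shRNA. Its log2 fold change was -1.04 ± 0.11, and set 28 with DS3201 was the highest library of each arm. Ppp2ca, the alpha catalytic subunit of protein phosphatase 2A, averaged 168 ± 9.23 CPM with the Ring1a shRNA and 333 ± 50.4 CPM with the ctr shRNA (SD, n = 4 libraries each), a log2 fold change of -0.98 ± 0.11. Mon2, a regulator of traffic between Golgi and endosomes, averaged 59.2 ± 5.19 CPM against 108 ± 10.0 CPM and fell by 0.87 ± 0.09 on the log2 scale. Map2k4, a kinase that activates JNK and p38, averaged 52.1 ± 2.24 CPM against 94.0 ± 10.2 CPM, a log2 fold change of -0.85 ± 0.09. For each of these 4 genes all 4 pairs were negative, with the closest agreement for Mon2, from -0.83 to -0.91. The arms of all 8 called genes did not overlap. Over all entries, the arms did not overlap for 260 lower ones, 1.7%, and for 132 higher ones, 0.863%.

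**Figure D1:**
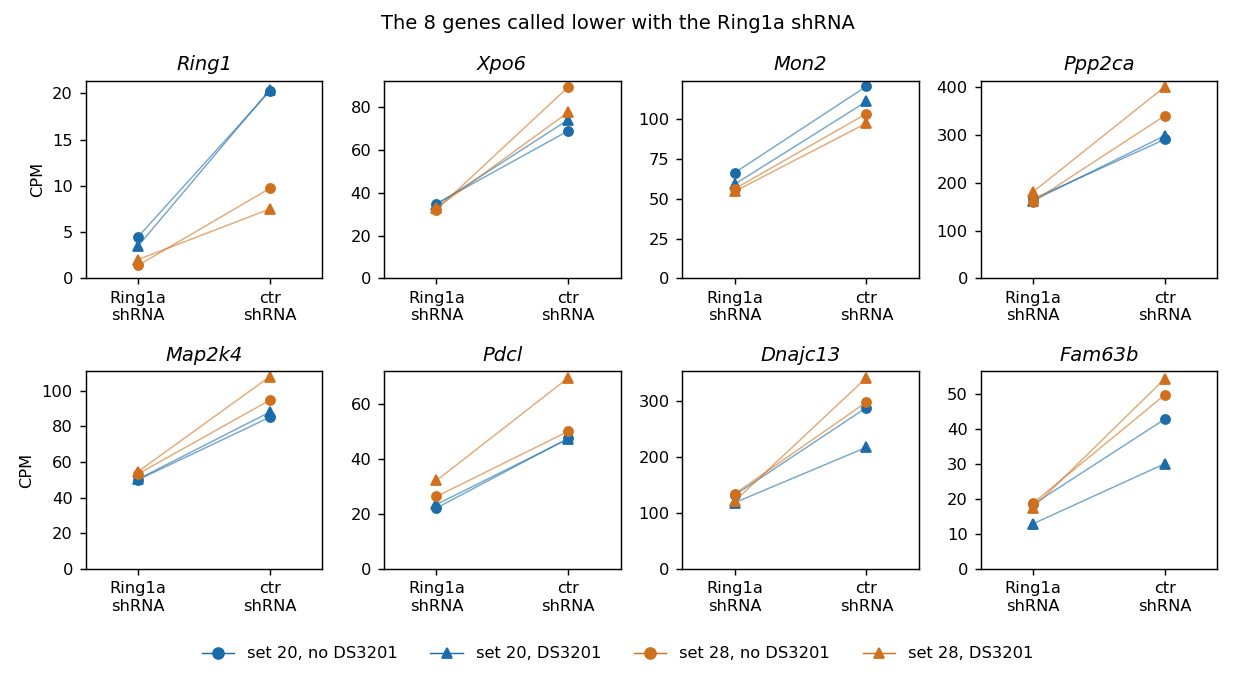
CPM (vertical axes, from 0) of the 8 genes called lower, in the 4 libraries with the Ring1a shRNA (left) and the 4 with the ctr shRNA (right). Lines join the 2 libraries of a matched pair, and in every panel all 4 values with the Ring1a shRNA lie below all 4 values with the ctr shRNA.

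The 7 genes share a short sequence that the rule of the comparison did not use. The 7-base word GGAGCTT occurs in the annotated 3′ UTR of 6 of them, and in the coding sequence of the other, Mon2. Of those 6, Xpo6 and Dnajc13 also hold 2 copies each in the coding sequence, and Map2k4 holds 1. The word also occurs once in the Ring1 mRNA, in the coding sequence at base 1366 of 2034. Of all tested genes with an annotated 3′ UTR, 23.5% hold the word in the 3′ UTR or the coding sequence. The windows of the 3′ UTR copies and of the copies in Ring1 and Mon2 are given 5′ to 3′ on the strand of the transcript. The word is in capitals. The windows were read from GENCODE M21 transcripts on GRCm38 (mm10).
Ring1, coding sequence, chr17:34021443-34021471, minus strand: tcactgaccttGGAGCTTgtaaacgagaa
Xpo6, 3′ UTR, chr7:126101745-126101773, minus strand: tgtgatactaaGGAGCTTaatgactaaat
Ppp2ca, 3′ UTR, chr11:52122348-52122376, plus strand: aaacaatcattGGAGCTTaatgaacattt
Ppp2ca, 3′ UTR, chr11:52125351-52125379, plus strand: ctaggtcctctGGAGCTTcagagttgtga
Map2k4, 3′ UTR, chr11:65688470-65688498, minus strand: aactgcttcttGGAGCTTtggaatatttt
Pdcl, 3′ UTR, chr2:37351090-37351118, minus strand: ttggtgtgtgtGGAGCTTgaaaacctcag
Pdcl, 3′ UTR, chr2:37350269-37350297, minus strand: tttctgactaaGGAGCTTattgtagaagt
Dnajc13, 3′ UTR, chr9:104151771-104151799, minus strand: ctgaacgacaaGGAGCTTgtgcaaaaaaa
Fam63b, 3′ UTR, chr9:70604602-70604630, minus strand: gaactgataatGGAGCTTggatccaattt
Fam63b, 3′ UTR, chr9:70602787-70602815, minus strand: ttaaacattttGGAGCTTaatgattctag
Mon2, coding sequence, chr10:123016366-123016394, minus strand: gccaagctgggGGAGCTTtgtgtggaccc

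The word was found by counting all 16384 possible 7-base words on the transcript strand in the longest annotated 3′ UTR of each gene, so its frequencies among lowered genes describe these data and carry no test. Of the 13417 tested genes with an annotated 3′ UTR, Ring1 left out, 1396 held it, 10.4%. Of the 100 genes with the smallest p among those lower in value, 60 held it, more than for any other word by excess over all genes. Fits to parts of the same libraries are not independent of the choice of the word. Those to set 20 and to libraries without DS3201 also share a pair. The word was first in set 20, with 47 of 100, and without DS3201, with 48 of 100. It was 6th in set 28, with 32 of 100, where A and T rich words led, and 405th with DS3201, with 25 of 100. Set 28 and the libraries with DS3201 both include the pair that followed GC content, and any part of that pair in these ranks was not tested.

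The share of genes holding the word increased with the evidence that a gene was lower, and stayed near 10.4% for genes that were higher. It was in 28 of 46 genes lower at an unadjusted p under 0.001 (60.9%), against 4 of 34 genes higher (11.8%). At this threshold 0.314% of entries were lower and 0.229% higher. Under 0.01, with 1.56% of entries lower and 1.87% higher, it was in 104 of 231 lower genes (45.0%) and 25 of 280 higher genes (8.93%). Under 0.05 it was in 216 of 774 lower genes (27.9%) and 80 of 857 higher genes (9.33%). Among the genes called by DESeq2 it was in 77 of 150 lower ones (51.3%) and 14 of 155 higher ones (9.03%). Lower genes held the word several times as often as higher genes under each of these rules. All these classes of lower genes overlap the lowest genes from which the word was chosen. The larger shares among lower genes, and their rise at smaller p, follow at least in part from that choice. They are not separate evidence for the word.

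Genes without the word in the 3′ UTR but with a copy in the coding sequence were also frequent among the lower ones. Of 18 genes lower at an unadjusted p under 0.001 and lacking it in the 3′ UTR, 8 held it in the coding sequence (44.4%), against 2 of 30 genes higher (6.67%) and 1762 of all 12021 such genes (14.7%). Counting either region, 36 of the 46 lower genes held a copy (78.3%), against 6 of the 34 higher genes (17.6%) and 23.5% of all genes. The 36 include the 28 genes with a copy in the 3′ UTR, the region in which the word was chosen. That share thus follows in part from the choice and is not separate evidence for the word.

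The shift was small for most genes with the word. The median log2 fold change was -0.09 for the 145 genes with 2 or more copies in the 3′ UTR and -0.05 for the 1251 genes with 1 copy, against 0.02 for the 12021 genes with none. In the 220 genes where an A follows a copy, the median was -0.12. Genes with the word have longer 3′ UTRs, with a median of 2442 bases against 1054 bases. Within 3 equal classes of 3′ UTR length, the medians of genes with and without the word were -0.14 and 0.03 in the shortest class, -0.04 and 0.03 in the middle class, and -0.05 and 0.00 in the longest. Genes that were lower also had a lower 3′ UTR GC content. Their median was 40.4% at an unadjusted p under 0.05, against 48.7% for higher genes. Within GC classes, genes with and without the word had medians of -0.21 and -0.09 in the lowest class and -0.08 and 0.01 in the middle. In the highest class they were 0.10 and 0.14. Over all pairs, the genes with the word thus had the lower median in each class of length and GC content. In the set 28 pair with DS3201 the longest class had the other order, -0.11 with the word and -0.13 without. Any part of length or GC content in these values was not tested. By pair, genes with the word had a median of -0.04 and -0.03 in sets 20 and 28 without DS3201 and -0.07 in each set with it.

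**Figure D2:**
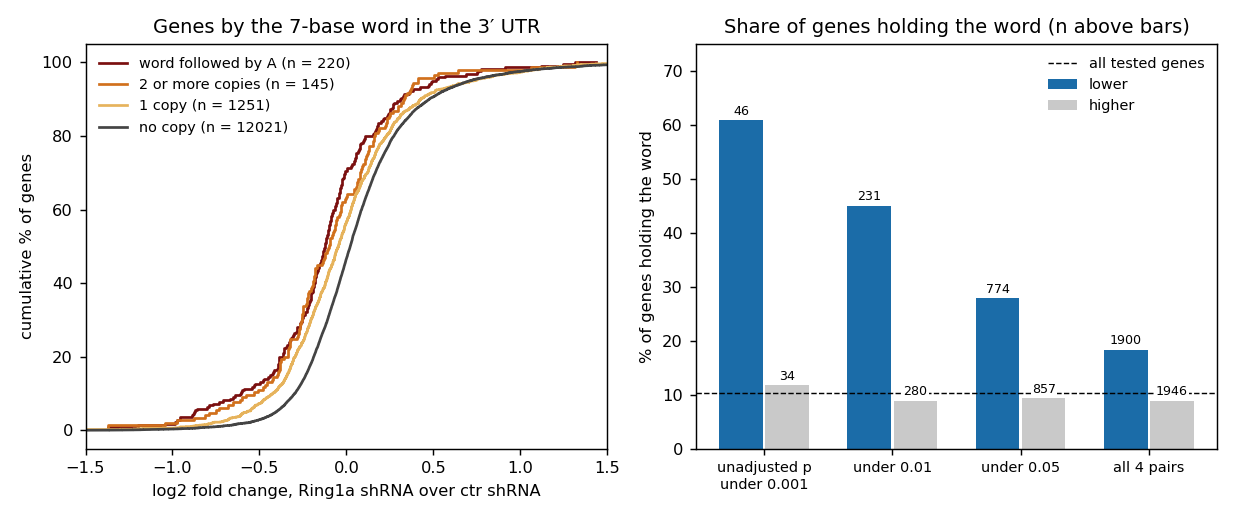
Left, cumulative percent of genes (vertical axis) by log2 fold change of Ring1a shRNA over ctr shRNA, for genes with the word followed by A, 2 or more copies, 1 copy or no copy in the 3′ UTR. Genes of the word followed by A are also counted in the classes by copies. Right, percent of lower and higher genes holding the word under 3 thresholds on the unadjusted p and for genes of 1 sign in all 4 pairs, with 10.4% of all tested genes as the dashed line. The shares are 60.9%, 45.0% and 27.9% for lower genes and lie near the dashed line for higher genes.

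The 2028 windows of 7 bases in the Ring1 mRNA were set against the same 100 lowest genes. The word was chosen as first by this excess over all genes in this fit, so its first place among the windows, at 49.6 percentage points, follows from that choice. The next window, at 22.8 points, overlaps it with a shift of 1 base. In set 28 alone another window, 614 bases downstream, had 22.3 points, against 21.6 for the word. With DS3201 alone the word ranked 34th among the windows, at 14.6 points. None of the 1738 mature mouse miRNAs in the RefSeq table has the reverse complement of the word, AAGCUCC, at bases 2 to 8. The labels and files used here do not give the sequence of the shRNA, so whether its guide strand carries that reverse complement was not tested, and neither was any part of it in the falls of the 7 genes.

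**Figure D3:**
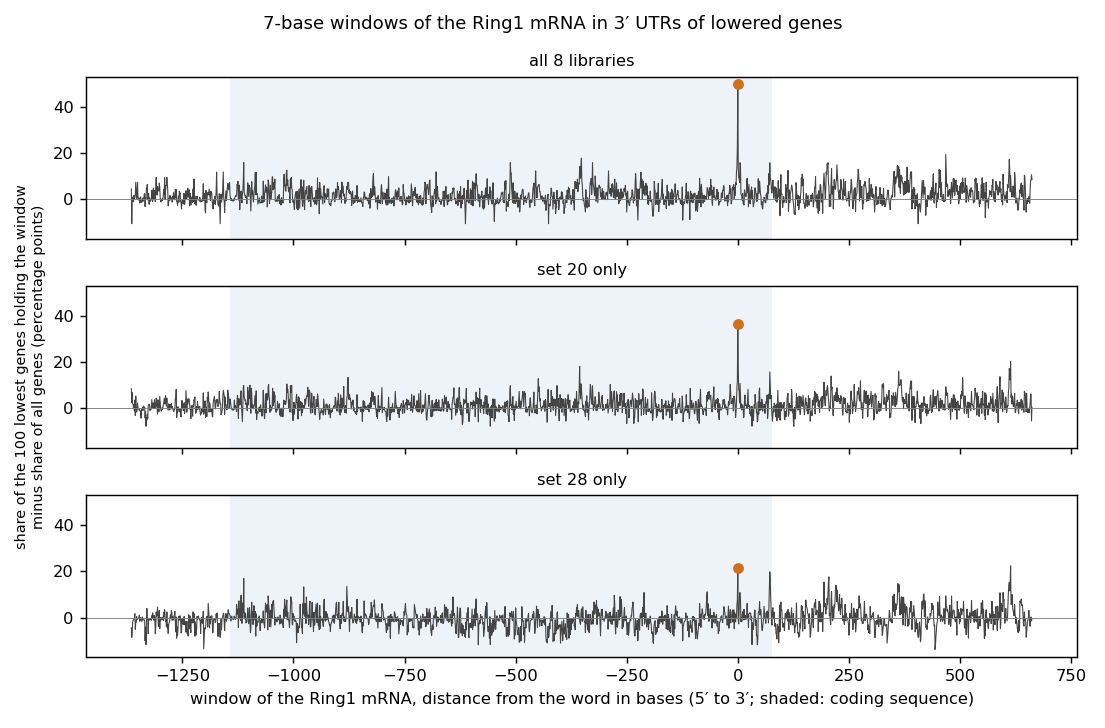
Each 7-base window of the Ring1 mRNA, by its distance in bases from the word (horizontal axis), with the share of the 100 lowest genes that hold it in the 3′ UTR minus the share of all genes (vertical axis, percentage points), for all 8 libraries, set 20 and set 28. The orange point marks the word, at 49.6, 36.6 and 21.6 points, and shading marks the coding sequence.

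Genes that were higher in all pairs did not pass. By the smallest p they were Gata2, Phlda2, Rgs3, Dusp4, Spsb1 and Gadd45b, with edgeR adjusted p from 0.0899 to 0.124. Gata2, a transcription factor of blood and vessel development, had 11.3 and 9.15 CPM with the Ring1a shRNA and 24.3 and 25.5 CPM with the Ring1a shRNA and DS3201, against 5.65 and 5.30 CPM with the ctr shRNA and 13.5 and 12.2 CPM with the ctr shRNA and DS3201. It was higher in every pair, while its arms overlapped, with the DS3201 libraries higher in both. Its log2 fold change was 0.93 ± 0.13 (edgeR adjusted p = 0.0899). Phlda2, an imprinted gene that restrains placental growth, averaged 3.97 CPM with the Ring1a shRNA and 1.12 CPM with the ctr shRNA, a log2 fold change of 1.80 ± 0.26 (edgeR adjusted p = 0.117). Dusp4, a phosphatase of MAP kinases, averaged 46.0 CPM against 23.3 CPM, a log2 fold change of 1.18 ± 0.18. Spsb1, a SOCS box adaptor of ubiquitin ligases, gave 1.34 ± 0.21, Rgs3, a regulator of G protein signalling, gave 0.92 ± 0.14, and Gadd45b, a stress-inducible gene, gave 0.81 ± 0.12. DESeq2 called all 6 of these genes higher, and so did edgeR without the set 28 pair with DS3201.

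**Figure D4:**
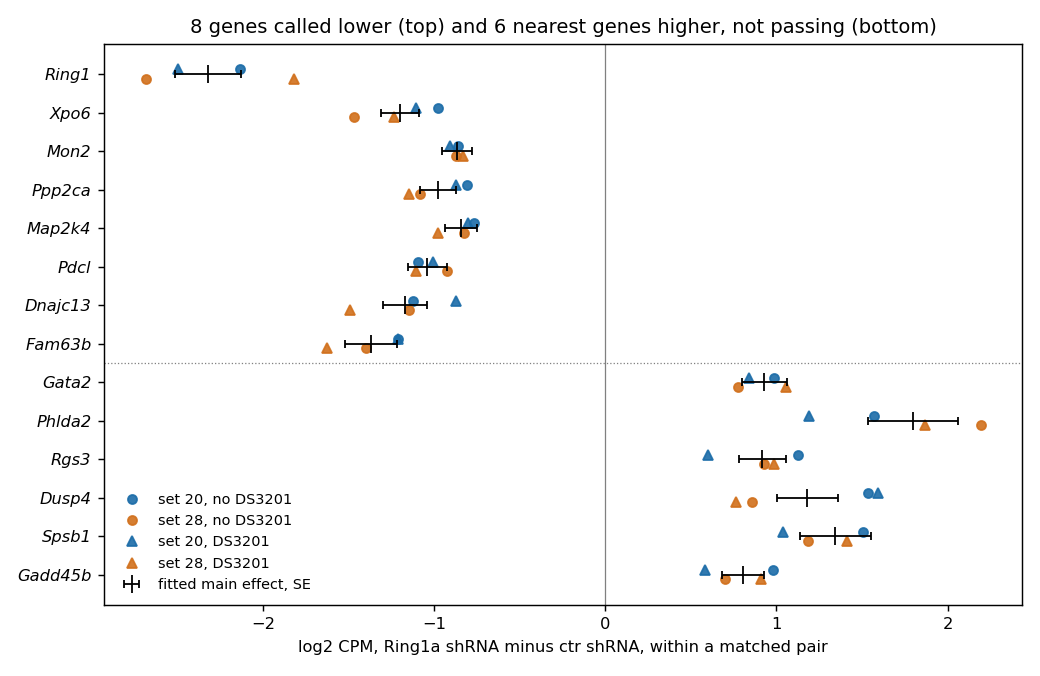
Difference in log2 CPM, Ring1a shRNA minus ctr shRNA, in each matched pair (points) and the fitted main effect with its SE (black), for the 8 called genes (top) and the 6 higher genes of smallest p (bottom, not passing). All points of the upper 8 genes are negative and all points of the lower 6 genes are positive.

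The 4 pairs shared part of their differences. Across the 15287 entries, Pearson r between pairs, which share no library, was 0.410 for sets 20 and 28 without DS3201 and 0.365 for set 20 without and with DS3201. It was 0.247 for set 28 without and set 20 with DS3201, and 0.172 to 0.229 for the comparisons with the set 28 pair with DS3201. All 4 pairs were lower for 2055 entries, 13.4%, and higher for 2119 entries, 13.9%. With the set 28 DS3201 pair left out, edgeR called 784 of 15612 entries lower, 5.02%, and 918 higher, 5.88%, with all 8 genes above among the lower. That fit has 3 libraries per arm, and leaving out any of the other 3 pairs gave 0 calls, with 427 to 589 lower and 829 to 984 higher at an unadjusted p under 0.05. In the pair it left out, 535 of the 784 lower entries were lower too, 68.2%, against 50.4% of all entries, and 608 of the 916 higher entries that could be compared were higher, 66.4%, against 49.6%. In the fit without the pair, 215 of 765 lower genes held the word (28.1%), against 81 of 880 higher genes (9.20%). The 3′ UTR GC medians of these genes were 44.1% and 44.4%. All libraries of this fit were among those used to choose the word, so these shares are not separate evidence for it. Any part of GC content in them was not tested.

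No difference between the effects with and without DS3201 passed. The interaction test called 0 entries, 0.0%, with 115 lower and 29 higher at an unadjusted p under 0.05 (edgeR quasi-likelihood), and DESeq2 and limma-voom also called 0. For Ring1 the effect with DS3201 minus that without was 0.20 ± 0.41 on the log2 scale. For the other 7 called genes it lay between -0.14 and 0.06. Leaving out the set 20 ctr shRNA library with DS3201 gave 978 lower and 1058 higher entries for this test, and the other 7 libraries left out in turn gave 0.

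The gene lists below are given over all 8 libraries and then in the edgeR fit without the set 28 pair with DS3201. Their counts at an unadjusted p under 0.05 stand beside 5.87% higher and 5.29% lower over all entries, and their calls without the pair beside 5.88% higher and 5.02% lower. Over all genes tested, 7557 were higher and 6836 lower in value. Among lower list members given below with a log2 fold change, Asxl1, Mlh3, Hmgcs1, Stard4 and Col6a3 hold GGAGCTT in the 3′ UTR. Suz12, Ezh2, Stag3, Samd9l, Ccne1 and Thbs1 lack it there, though Stag3 holds it in the coding sequence. Higher list members can hold it too: of those named below, Grhl2 does in the 3′ UTR and Dsp in the coding sequence. PRC1, the complex to which Ring1 belongs, had no other called member among its 36 tested subunit genes. At an unadjusted p under 0.05, 4 were higher and 3 lower, Ring1 included, and the median log2 fold change was 0.14, against 0.02 for all 14393 genes tested. When that pair was left out, edgeR called 8 higher, among them Cbx2, which reads H3K27 methylation, and Bcor, E2f6, Max and Yaf2 of the variant complexes, and 4 lower, Ring1, Usp7, Dcaf7 and Csnk2a1. Among 11 PRC2 genes none passed. Jarid2, the accessory subunit that recognises ubiquitinated H2A, averaged 22.7 CPM with the Ring1a shRNA and 16.9 CPM with the ctr shRNA, positive in all 4 pairs (log2 fold change 0.44 ± 0.11, edgeR adjusted p = 0.266). Suz12, a core subunit, gave -0.24 ± 0.14. Of 15 genes for H2A deubiquitinases and other H2A ubiquitin ligases, 13 were lower in value. By pair their median was -0.06 and -0.02 in sets 20 and 28 without DS3201, and -0.12 and -0.44 with it. Asxl1, the cofactor of the deubiquitinase Bap1, gave -0.29 ± 0.09 (edgeR adjusted p = 0.302) and was negative in all pairs. The EZH genes targeted by DS3201 did not pass either: Ezh1 gave 0.19 ± 0.12 and Ezh2 -0.09 ± 0.13. Without the pair, Jarid2 was called higher and Asxl1 lower, the 1 call in each of these lists.

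Developmental transcription factors leaned higher without passing, and their control by Polycomb was not measured in these libraries. Of 72 tested developmental transcription factors, 60 were higher in value, 16 at an unadjusted p under 0.05 with 1 lower, and the median log2 fold change was 0.28. Besides Gata2, Foxf2, a forkhead factor of mesenchyme, had 14.2 and 12.8 CPM with the Ring1a shRNA and 16.6 and 15.7 CPM with the Ring1a shRNA and DS3201. With the ctr shRNA it had 9.84 and 6.85 CPM, and with the ctr shRNA and DS3201 11.9 and 7.596 CPM. The arms did not overlap, and the log2 fold change was 0.73 ± 0.15 (edgeR adjusted p = 0.192). In the fit without that pair, 12 of 71 were called higher, Gata2, Sox9, Eomes, Tbx2, Foxf2, Foxd1, Dlx2, Lhx2, Gata6, Foxf1, Irx3 and Hlf, and 1 lower, Ebf1.

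Hox genes, the classical Polycomb targets, had a median of 0.40 over the 27 tested of 52 listed, with 7 higher and 0 lower at an unadjusted p under 0.05. Hoxa10 gave 0.40 ± 0.12 and was higher in all 4 pairs (edgeR adjusted p = 0.282). Hoxa10 and Hoxc11 were the 2 Hox genes called higher without the pair. Hoxd11 was near the floor, at 1.15 CPM with the Ring1a shRNA and 0.40 CPM with the ctr shRNA, with 0 counts in all 4 libraries without DS3201. Of 21 germline and meiosis genes 3 were lower at this level and 0 higher. Mlh3, of meiotic crossing over, gave -0.57 ± 0.15, and Stag3, a meiotic cohesin subunit, gave -0.33 ± 0.10, both negative in all pairs (edgeR adjusted p = 0.264 and 0.287). Genes of the 2-cell embryo had a median of 0.08, with 1 higher and 0 lower of 26. Dux averaged 1.24 CPM with the Ring1a shRNA and 0.40 CPM with the ctr shRNA, where the libraries without DS3201 had 0 and 4 counts against 1 and 2 counts, and it did not pass (edgeR adjusted p = 0.481). The protocadherin beta cluster had a median of -0.01. Imprinted genes, led by Phlda2, had 3 higher and 4 lower of 47, shares near those over all entries. Without the pair, 4 imprinted genes were called higher and 3 lower, 1 germline gene higher and 3 lower, 1 gene of the 2-cell embryo higher and 0 of the protocadherins.

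Genes of NF-kB signalling and chemokines had 6 higher and 0 lower of 33 at an unadjusted p under 0.05, with a median of 0.29. By pair the list median was 0.66 and 0.36 in sets 20 and 28 without DS3201, and 0.12 and -0.10 with it. Cx3cl1, the membrane-bound chemokine fractalkine, had 49.9 and 12.5 CPM with the Ring1a shRNA and 59.5 and 31.4 CPM with the Ring1a shRNA and DS3201, against 21.6 and 3.62 CPM with the ctr shRNA and 35.1 and 11.7 CPM with the ctr shRNA and DS3201. It was higher in every pair, and its arms overlapped, with set 28 below set 20 in each group (log2 fold change 1.27 ± 0.24, edgeR adjusted p = 0.183). Nfkbia, the inhibitor that NF-kB itself induces, gave 0.49 ± 0.12. The matrix protease Mmp10 averaged 31.0 CPM against 8.77 CPM (log2 fold change 2.01 ± 0.57, edgeR adjusted p = 0.281). The fit without that pair called 9 of 34 higher, among them Mmp10, Il6, Cxcl1 and Tnfaip3, and 1 lower, Mmp3. Interferon-stimulated genes did not keep 1 direction over pairs: their median was -0.01 and 0.35 in sets 20 and 28 without DS3201 and -0.71 and -0.23 with it. Samd9l, an interferon-induced antiviral gene, gave -0.73 ± 0.23 (edgeR adjusted p = 0.308). MHC class I presentation genes had 0 of 25 at an unadjusted p under 0.05 in either direction. Without the pair, 1 interferon-stimulated gene was called higher and 0 MHC class I genes were called.

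Genes of cholesterol and fatty acid synthesis were lower in value for 28 of 35, with 8 lower and 0 higher at an unadjusted p under 0.05. The median log2 fold change was -0.12. Hmgcs1, an early enzyme of the mevalonate pathway, averaged 184 CPM with the Ring1a shRNA and 268 CPM with the ctr shRNA, negative in all pairs (log2 fold change -0.54 ± 0.11, edgeR adjusted p = 0.191). Stard4, a carrier of cholesterol between membranes, gave -0.52 ± 0.11 (edgeR adjusted p = 0.211). Once that pair was left out, 10 were called lower and 0 higher, including the regulators Srebf1 and Srebf2. By pair the list median was -0.50 and -0.08 in sets 20 and 28 without DS3201, and -0.30 and 0.13 with it.

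Cell-cycle genes were lower in value for 56 of 69, with 11 lower and 1 higher at an unadjusted p under 0.05 and a median of -0.15. Ccne1, cyclin E1, gave -0.39 ± 0.12, while Mybl2, a transcription factor of dividing cells, gave 0.47 ± 0.12, each with 1 sign in all pairs (edgeR adjusted p = 0.297 and 0.260). With that pair left out, 12 were called lower, among them Mcm5, Mcm6, Plk1, Cdc20 and Kif11, and 4 higher, among them Mybl2, Ccne2 and E2f7. Among 39 p53 targets and CDK inhibitors, Btg2, an antiproliferative gene, gave 0.96 ± 0.22 and Pmaip1, the proapoptotic gene Noxa, 0.72 ± 0.21, and neither passed. Without the pair, Pmaip1 was called higher and Cdkn2d lower. The list of replication-dependent histone genes, which share near-identical copies and largely lack poly(A) tails, also holds variant histone genes such as H2afz. Its median was 0.95 in the set 28 pair with DS3201 and 0.00 to 0.12 in the others. Without that pair 1 member was called higher, the variant H2afz, and 2 lower, H2afx and Hist2h2be.

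Extracellular matrix genes had 9 lower and 2 higher of 66 at an unadjusted p under 0.05. Col6a3, a chain of collagen VI, averaged 228 CPM with the Ring1a shRNA and 360 CPM with the ctr shRNA (log2 fold change -0.77 ± 0.14, edgeR adjusted p = 0.179), and Thbs1, thrombospondin 1, gave -0.50 ± 0.14. Both were negative in all 4 pairs, and both were among 10 matrix genes called lower, with 3 higher, without the set 28 pair with DS3201. Myl9, the regulatory light chain of smooth muscle myosin, gave 0.81 ± 0.15 among the contractile genes, where 3 of 41 were higher and 2 lower. The fit without the pair called 4 contractile genes higher and 2 lower. Genes of glycolysis and hypoxia had 6 higher and 0 lower of 35, and without the pair 8 of 36 were called higher and 2 lower, Pfkl and P4ha1. Pfkfb3, which makes the activator of phosphofructokinase, gave 0.58 ± 0.13. ATF4 and unfolded protein response genes had 5 higher and 3 lower of 47, led by Stc2, a secreted stress glycoprotein, at 1.30 ± 0.21 (edgeR adjusted p = 0.126), and without the pair 8 were called higher and 4 lower. Heat shock genes Hspb1 and Hspa1b gave 0.68 ± 0.15 and 0.45 ± 0.12, and the list of 41 NRF2 and heat shock genes had 6 called higher and 2 lower without the pair. Over all 8 libraries, ribosomal protein genes had 0 of 80 in either direction at this level.

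Markers of cell types gave no called gene in edgeR over all 8 libraries. At an unadjusted p under 0.05, 2 of 11 neuronal markers were higher, Uchl1, a neuronal deubiquitinase, at 1.06 ± 0.21 and Tubb3 at 0.65 ± 0.20, and the summed level was 223 to 283 CPM with the Ring1a shRNA and 212 to 318 CPM with the ctr shRNA. At the same level 4 of 11 epithelial markers were higher, with sums of 233 to 471 CPM against 229 to 416 CPM. Of 17 fibroblast markers 2 were higher and 4 lower at it. Without the set 28 pair with DS3201, Uchl1 was called higher and Dcx lower among neuronal markers, Dsp and Grhl2 higher among epithelial markers, and Pdgfra higher and S100a4 lower among fibroblast markers. DESeq2 over all 8 libraries called Uchl1 higher too (adjusted p = 0.0169). The 19 tested neighbours of Ring1 on chromosome 17 gave 0 called genes, with 1 higher and 0 lower at an unadjusted p under 0.05. Of these, Kifc1 and Vps52 were called lower without the set 28 pair with DS3201.

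**Figure D5:**
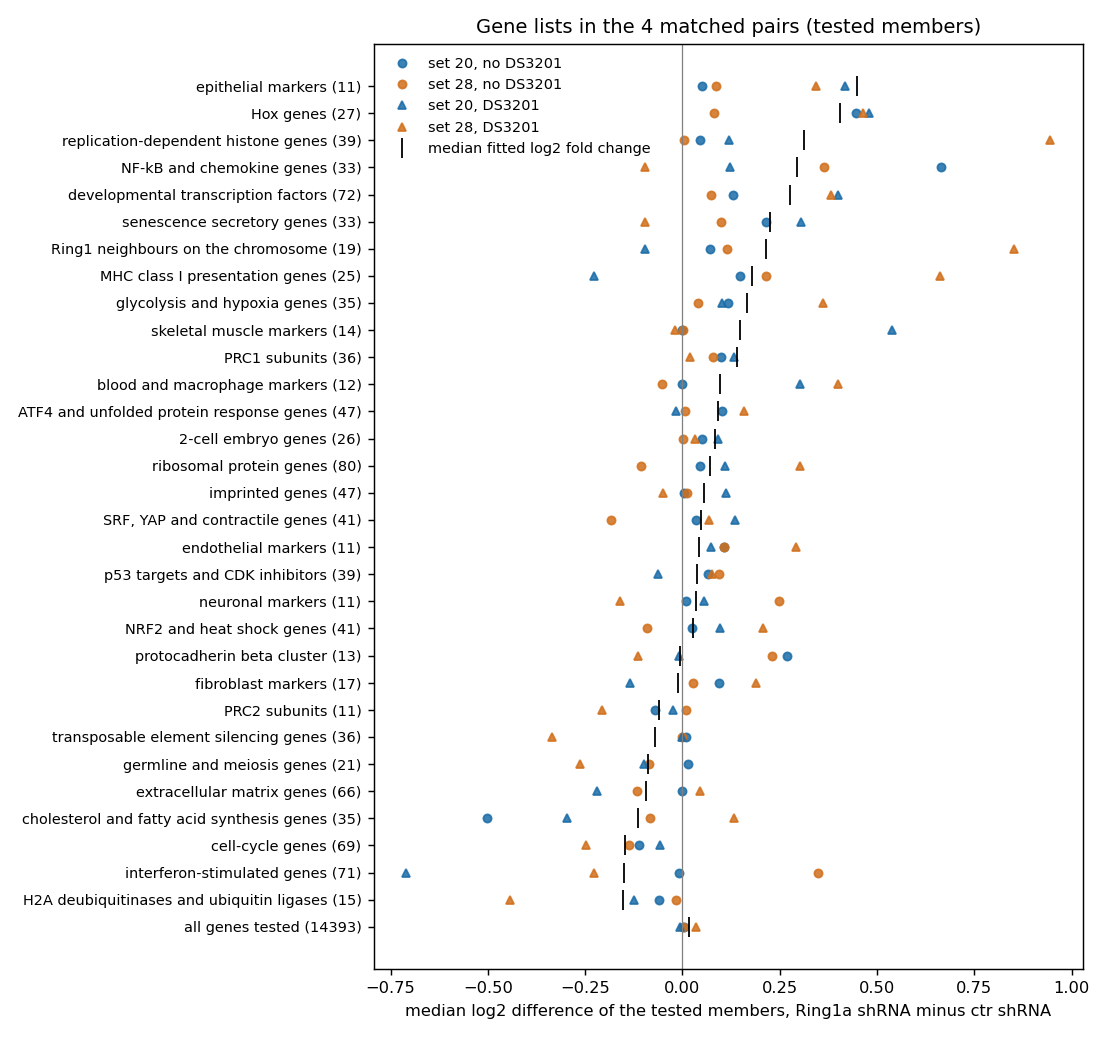
Median difference in log2 CPM, Ring1a shRNA minus ctr shRNA, of the tested members of each gene list (rows, with the number tested) in the 4 matched pairs (points), and the median fitted log2 fold change (black bar). All 4 pair medians lie right of 0 for 8 lists (epithelial and endothelial markers, Hox, histone, glycolysis and hypoxia and 2-cell embryo genes, developmental transcription factors and PRC1 subunits), left of 0 for cell-cycle and H2A deubiquitinase and ligase genes, and on both sides of 0 or at it for the others.

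Repeat subfamilies, the elements that H3K9 methylation normally silences, gave 0 called of 894 tested. At an unadjusted p under 0.05 there were 6 higher and 11 lower (edgeR quasi-likelihood). MURVY-int, an ERV1 retrovirus, had 36.9 and 72.6 CPM with the Ring1a shRNA and 106 and 161 CPM with the Ring1a shRNA and DS3201, against 19.7 and 37.2 CPM with the ctr shRNA and 68.5 and 113 CPM with the ctr shRNA and DS3201. It was higher in each pair, with overlapping arms (log2 fold change 0.75 ± 0.12, edgeR adjusted p = 0.126). IAPEz-int, the interior of the intracisternal A particle and the most abundant of the elements examined, averaged 41214 CPM against 42763 CPM, a log2 fold change of -0.06 ± 0.12. MERVL-int, the retrovirus of the 2-cell embryo, gave -0.04 ± 0.17. Its pairs were negative without DS3201 and positive with it.

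Young L1 elements gave -0.49 ± 0.23 for L1Md_T and -0.45 ± 0.27 for L1Md_A, and these values rested on the set 28 pair with DS3201. L1Md_A had 587 and 731 CPM with the Ring1a shRNA and 709 and 832 CPM with the Ring1a shRNA and DS3201, against 664 and 755 CPM with the ctr shRNA and 703 and 2248 CPM with the ctr shRNA and DS3201. A single control library was high. Over all repeat subfamilies the median difference was -0.52 in that pair and 0.06 to 0.08 in the others. Without that pair edgeR called 16 of 909 subfamilies higher, MURVY-int and ETnERV-int among them, and 9 lower, of which 5 were IAP entries, such as IAPEy-int and IAPLTR1a_Mm. Reads of related subfamilies can be split between them, and the labels do not say how such reads were counted.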

How the data were processed

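The values are raw counts per gene symbol or repeat subfamily, deposited by the authors without normalization. Per the submitters' processing notes, Trim Galore and TopHat2 were used with the mm10 build. No counting tool or annotation is named in the labels. Groups came from the labels, and 8 further columns that match no labelled sample were not used. The 8 libraries held 12738585 to 23688253 counts, where 3 counts correspond to 0.127 to 0.236 CPM, a floor that covers counting error only.

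Entries were filtered with filterByExpr by group, which left 15287 of 25215, and scaled by TMM. The main test was edgeR 4.0.16 in R 4.3.3 (robust quasi-likelihood, two-sided, Benjamini-Hochberg), under a model of set, DS3201 and shRNA with 4 residual degrees of freedom. The interaction was tested in a second model. Pair differences are log2 CPM with a prior count of 2. DESeq2 1.42.0, limma 3.58.1 (voom), other scalings and filters, and fits without a library or a pair were the alternatives.

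The leading number of the column names was used as the block. The labels give each replicate number a batch but do not tie it to that number. Set 20 minus set 28 differences of the 4 groups correlated across genes, pair by pair of groups, with r from 0.559 to 0.897.

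Words of 7 bases were counted on the transcript strand in the longest 3′ UTR per gene of GENCODE M21 (GRCm38). Of 24062 gene symbols, 22750 matched it directly and 922 through 1 synonym. Named genes were the perturbed genes, all called genes, the 6 higher genes of smallest p, and the members of smallest p per list. Members called only in the fit without a pair were named after their values were seen. The members, lists and tests were chosen with earlier results of these data known. The statistics were tested on simulated data.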

Additional observations from a re-analysis of the deposited data

Results flagged for a closer look

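Within the 4 matched pairs, a single pair lay far from the other 3 for 6 of the named entries. With 4 values, chance flags about 1 such group in 20. All named genes and repeats were screened in this way, so some flags by chance alone are likely. In the set 28 pair with DS3201 the difference, Ring1a shRNA minus ctr shRNA in log2 CPM, was 0.81 for Ehmt2 (0.8066), an H3K9 methyltransferase gene labelled as knocked out in all libraries, with 173 to 208 CPM with the Ring1a shRNA and 98.9 to 217 CPM with the ctr shRNA. In the same pair it was -1.1067 for Dzip3, an H2A ubiquitin ligase, -0.7279 for Pdia3, a chaperone of MHC class I loading, 0.5262 for Rpl13a, a ribosomal protein gene, and -1.4344 for L1Md_A. For Nfkbia the odd pair was set 20 with DS3201, at 0.1816, with the other 3 pairs above it.

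For 5 entries both pairs without DS3201 went one way and both pairs with it the other. The effect with DS3201 minus that without was 2.8901 on the log2 scale for Actc1, cardiac actin, 0.2484 for MERVL-int, 0.6214 for Krt80, a keratin, 1.0067 for Vwf, the von Willebrand factor gene, and -1.4344 for Cp, ceruloplasmin. The interaction test gave an edgeR adjusted p of 0.99 for each, so none of these differences passed. Krt80, Vwf and Cp were named for a small unadjusted interaction p, so their opposite signs with and without DS3201 largely follow from that choice. Actc1 had 0 or 1 count in 6 of the 8 libraries.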

How the results depend on the processing

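The count of entries lower with the Ring1a shRNA, 8, stayed between 7 and 9 with limma-voom, RLE or upper-quartile scaling, no or a stricter filter, the robust option off, genes alone, or a block of set by DS3201. It was 0 with no replicate block, 0 without the DS3201 term and 0 with the interaction in the model, where the log2 fold change of Ring1 was -2.3246 (edgeR adjusted p = 0.951), -2.3248 (0.0568) and -2.3203 (0.132). DESeq2 gave 152 lower and 158 higher against 0 higher in the main model. Set 20 alone gave 307 and 336, set 28 alone 6 and 31, libraries without DS3201 1241 and 1387, and libraries with it 9 and 11. These splits leave 1 residual degree of freedom. Leaving out 1 library in turn gave 0 to 82 lower and 0 to 66 higher. Leaving out 1 pair gave 0 to 784 lower and 0 to 918 higher, the upper values without the set 28 pair with DS3201. Over all these fits without a library or a pair, the log2 fold change of Ring1 ran from -2.4555 to -2.2105. The interaction gave 0 calls throughout except 978 lower and 1058 higher without the set 20 ctr shRNA library with DS3201. The cause was not tested.

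Among entries named for the shRNA effect, the log2 fold changes of 9 that did not pass changed sign. That of Vwf, named for its interaction, was 0.02 and changed to -0.0231 with no replicate block, -0.0222 without the set 28 ctr shRNA library with DS3201 and -0.0719 without the set 28 pair with DS3201. Without the set 28 pair with DS3201, Suv39h2 was 0.0546, Ehmt2 -0.0364, Ezh2 0.0688 and GSAT_MM 0.0544. In set 20 alone Suv39h2 was 0.0707, Ehmt2 -0.0756, Ezh2 0.0876 and GSAT_MM 0.082. Without DS3201 alone Ehmt2 was -0.0175, Ezh2 0.0117, MT2_Mm -0.0254 and GSAT_MM 0.0035. MERVL-int was 0.0522 without the DS3201 term, 0.0439 in set 28 alone and 0.0986 with DS3201 alone, where IAPEz-int was 0.0213. Myh8 was -0.5292 with the interaction in the model. Leaving out 1 library in turn gave -0.1848 to 0.0681 for Suv39h2, -0.0566 to 0.2955 for Ehmt2, -0.149 to 0.0342 for Ezh2, -0.8051 to 1.6888 for Actc1, -0.1724 to 0.1518 for MERVL-int, -0.0295 to 0.3226 for MT2_Mm, -0.1169 to 0.0164 for IAPEz-int and -1.258 to 0.0579 for GSAT_MM. Without the set 20 pair without DS3201, MERVL-int was 0.0694 and IAPEz-int 0.0027.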
